A study of Callithrix jacchus with 20 samples.

Results

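PAX6, PAX3, NKX2-2, GSX2, SOX3, SOX11, OTX2, ZIC2 and ZIC5 encode transcription factors that act in the forming nervous system, and their transcripts were followed through marmoset pluripotent cells, their mesendoderm precursors and the cells sorted from embryoid bodies. The genes were taken by symbol, and all 9 were found among the 25100 genes of the count table and among the 15795 genes that passed a filter on low counts. Poly(A) RNA-seq libraries were available for 10 conditions with 2 biological replicates each, 20 libraries in all. Every library came from DPZ_cjiPSC2, a line of marmoset induced pluripotent stem cells (cjiPSCs), so all values describe a single line. The cjiPSCs were kept either in TESR, a commercial medium for human pluripotent cells, or in cjPSCM. The latter is a human medium for expanded potential with TGFβ and FGF2 added. The authors report that in marmoset cells it does not fully bring about that state. From each medium, precursors of mesendoderm (pre-ME) were made with the GSK3 inhibitor CHIR, either together with Activin A (pre-ME +ActA) or without it (pre-ME −ActA). Pre-ME from cjPSCM cultures went on into embryoid bodies with BMP4, LIF, SCF and EGF, and at day 4 marker-positive cells (cjPGCLCs) and double-negative cells (soma) were sorted from both the +ActA and the −ActA series. The labels name INTa6 with EpCAM in some fields and CXCR4 with EpCAM or INTalpha6 in others as the sort markers. No day 4 cells from TESR cultures were analysed here.

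These factors divide the work of laying out the neural plate and tube. SOX3, a SOXB1 factor, keeps cells in a neural progenitor state and SOX11, a SOXC factor, acts when progenitors become neurons, while OTX2 sets up the forebrain and midbrain and is also active in pluripotent cells. ZIC2 and ZIC5, zinc finger factors whose genes are neighbours in the RefSeq order of the marmoset genome, act in the early neural plate and its dorsal side. PAX3 marks the dorsal tube and the neural crest, PAX6 the forebrain, the eye and progenitors of the tube, GSX2 the ventral forebrain, and NKX2-2 the most ventral progenitors below PAX6.

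Between 4784783 and 22066961 reads per library were counted on genes, with a median of 11599642. The log2 difference between replicates had an SD over genes of 0.885 in cjPSCM cjiPSCs, 0.571 in TESR cjiPSCs and 0.279 to 0.499 in the other 8 conditions. Summed normalised counts of 6 germ cell markers ran from 1343 to 2656 in the cjPGCLC libraries and from 168 to 341 in the soma libraries. The genes of the sort markers CXCR4, ITGA6 and EPCAM together gave 2953 to 5249 normalised counts in cjPGCLCs and 350 to 434 in soma. In cjiPSCs the germ cell marker sum was 1317 to 1358 in TESR and 1315 to 2358 in cjPSCM. The sort marker sum was 3778 to 5408 in cjPSCM cjiPSCs. Both sums thus set cjPGCLCs apart from soma but not from cjPSCM cjiPSCs. The 4 neuronal markers measured (DCX, ELAVL3, ELAVL4 and STMN2) summed to 78.8 to 375 normalised counts over the 20 libraries, with no condition in which one of them was at 0.

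The 9 genes fell into different patterns over the conditions, here given as counts normalised by size factors. SOX11 and ZIC2 were read in every library, at no less than 1128 and 132 normalised counts, and ZIC5 at no less than 60.9. GSX2 had reads in 5 of the 20 libraries, and 4 of these were the pre-ME +ActA libraries of both media. NKX2-2 stayed at 3 counts or fewer in all 14 libraries of the cjPSCM route and at 33.7 normalised counts or more in all 6 TESR libraries. PAX6 overlaps ELP4 in the RefSeq gene order, which is of another assembly than the one counted. The strand setting of the counting is not given in the sources used here. The PAX6 counts may thus hold reads of ELP4 or lack reads set aside as ambiguous. Values are not compared between genes, since the counts were not scaled by gene length.

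**Figure D1:**
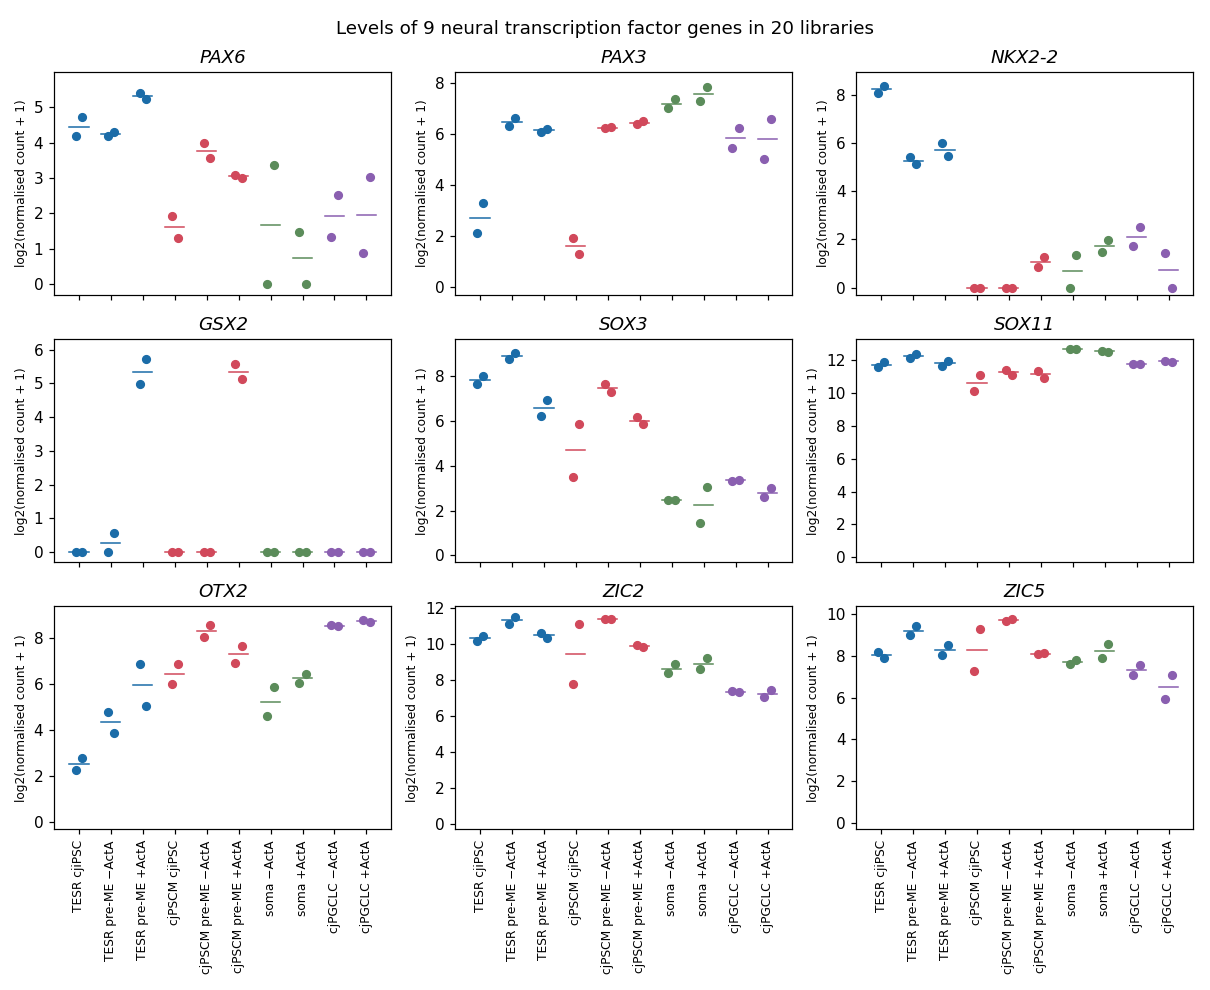
Level of each gene in each library as log2(normalised count + 1), 1 panel per gene, with the 10 conditions on the horizontal axis. Points are the 2 replicates and bars their mean, and GSX2 rises above 0 in pre-ME +ActA, NKX2-2 is high only in the TESR libraries, and the ZIC2 and ZIC5 replicates lie far apart in cjPSCM cjiPSCs.

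The first comparison asked how the culture medium sets these genes before differentiation. In cjiPSCs kept in cjPSCM, NKX2-2, PAX6, SOX3 and SOX11 were lower and OTX2 was higher than in TESR. Of the 9 genes, 5 passed an adjusted p of 0.05 and 4 of these also a log2 fold change beyond 2, where 36.2% and 9.18% of all genes tested did. In bulk RNA, fewer cells that express a gene and less RNA per cell cannot be told apart.

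SOX3 was at 200.5 and 261 normalised counts in the TESR replicates and at 10.4 and 57.8 in the cjPSCM replicates. The media did not overlap, and SOX3 fell by 2.90 on the log2 scale in cjPSCM (SE 0.45, adjusted p = 9.26e-05). SOX11 fell from 3089 and 3769 to 1128 and 2203 normalised counts, a log2 fold change of -1.07 (SE 0.22, adjusted p = 0.00138). OTX2 went the other way. It was at 3.86 and 5.96 normalised counts in TESR and at 63.1 and 116 in cjPSCM, so that both cjPSCM libraries were above both TESR libraries, and it rose by 4.22 on the log2 scale (SE 0.72, adjusted p = 0.000232).

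NKX2-2 had 494 and 219 counts in the TESR replicates, or 272 and 326 after normalisation, and no count in either cjPSCM replicate. Set against a floor of 3 counts per library, it was at least 82.3-fold lower in cjPSCM (adjusted p = 2.87e-08). PAX6 was at 17.1 and 25.3 normalised counts in TESR but had only 3 counts and 1 count in cjPSCM. The count ratio was 8.38-fold lower, with a 95% counting interval of 3.07 to 32.0 (adjusted p = 0.00481). PAX3 was low in both media, at 3.31 and 8.93 normalised counts in TESR and 2.83 and 1.48 in cjPSCM, and did not pass the test (adjusted p = 0.403).

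The ZIC genes gave no stable value in this comparison. ZIC2 was at 1189 and 1438 normalised counts in TESR and at 224 and 2281 in cjPSCM, and ZIC5 at 289 and 234 against 153 and 621. For both genes the cjPSCM replicates lie on either side of the TESR replicates. The log2 fold change of ZIC2 was -0.11 (SE 0.55, adjusted p = 0.900), but 0.76 without cjPSCM replicate 1 (adjusted p = 0.0117) and -2.54 without cjPSCM replicate 2 (adjusted p = 6.76e-07). That of ZIC5 was 0.50 (SE 0.44, adjusted p = 0.404), with 1.19 and -0.79 in the same fits. SOX3 fell by 2.01 without cjPSCM replicate 1 and fell by 4.44 without cjPSCM replicate 2, and SOX11 fell by 0.67 and fell by 1.60 in the same fits. With the libraries of the comparison alone the SOX11 call was lost (adjusted p = 0.0678).

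Some of these genes also differed between the pre-ME made from the 2 media. In pre-ME −ActA, 4 of the 9 genes passed the adjusted p and 2 passed both thresholds, against 14% and 3.91% of all genes, and in pre-ME +ActA 3 and 2 genes did, against 27.4% and 4.12%. The 3 of 9 in pre-ME +ActA are near the share of all genes. NKX2-2 had 76 and 72 counts in TESR pre-ME −ActA and none in cjPSCM pre-ME −ActA, at least 15.9-fold lower (adjusted p = 4.60e-06). With ActA it had 114 and 81 counts in TESR pre-ME and 1 in each cjPSCM replicate, a ratio 50.2-fold lower with a counting interval of 13.7 to 417 (adjusted p = 9.78e-06). NKX2-2 thus had 1 count at most in all 6 cjPSCM libraries of cjiPSCs and pre-ME.

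OTX2 was at 26.9 and 13.6 normalised counts in TESR pre-ME −ActA and at 259 and 372 in cjPSCM pre-ME −ActA. Both cjPSCM replicates were above both TESR replicates, and the log2 fold change was 3.98 (SE 0.50, adjusted p = 3.30e-05). In pre-ME +ActA the OTX2 replicates of TESR were far apart, 115 and 31.8 normalised counts, against 119 and 198 in cjPSCM. The log2 fold change of 1.08 (SE 0.45) did not pass over 20 libraries (adjusted p = 0.0853) but did over 18 (0.0472). Without the higher TESR replicate, number 1, it was 2.28. The fit of 18 libraries, here and below, leaves out the cjPSCM cjiPSC pair, whose replicates lay far apart. It was added after seeing the data and is not independent of the fit of 20. Of 95 values 16 gained a call in it and 0 lost one.

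SOX3 was lower in cjPSCM than in TESR in pre-ME −ActA, with a log2 difference of -1.43 (SE 0.36, adjusted p = 0.0127), and SOX11 with differences of -0.99 (SE 0.22, adjusted p = 0.00520) in pre-ME −ActA and -0.68 (SE 0.22, adjusted p = 0.0309) in pre-ME +ActA. PAX6 was at 41.0 and 36.6 normalised counts in TESR pre-ME +ActA and at 7.51 and 7.02 in that from cjPSCM, which is -2.41 on the log2 scale (SE 0.57, adjusted p = 0.00548). PAX3, GSX2, ZIC2 and ZIC5 did not pass the adjusted p between media in either pre-ME over 20 libraries. With the libraries of the comparison alone, ZIC2 passed in pre-ME +ActA (adjusted p = 0.000444, and 0.0231 over 18 libraries) and ZIC5 in pre-ME −ActA (0.0363). In pre-ME +ActA, the PAX6 call was lost without cjPSCM replicate 1 (adjusted p = 0.0651) and that of SOX11 without cjPSCM replicate 2 (0.237) or either TESR replicate (0.0511 and 0.197). In pre-ME −ActA, the calls of SOX3 and SOX11 were lost without cjPSCM replicate 2 (adjusted p = 0.154 and 0.0924) or TESR replicate 2 (0.125 and 0.0630).

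**Figure D2:**
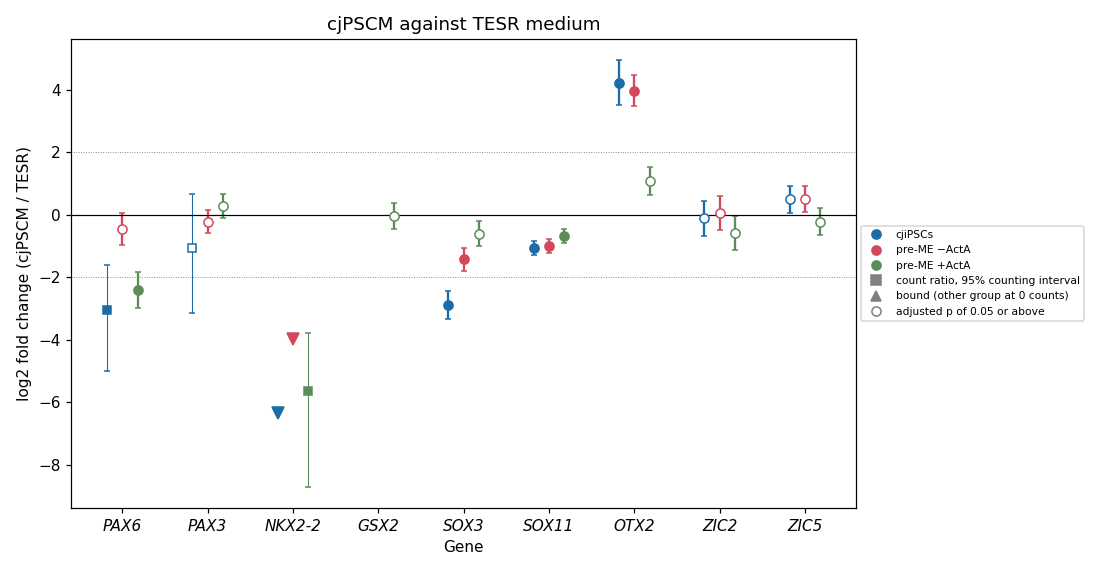
Difference between media for each gene in cjiPSCs, pre-ME −ActA and pre-ME +ActA, as log2 fold change of cjPSCM over TESR. Circles are edgeR estimates with 1 SE, squares are count ratios with their 95% counting interval where the low group had 1 to 3 counts in a library, triangles are bounds where the low group had none, open symbols mark an adjusted p of 0.05 or above, dotted lines mark a log2 fold change of 2, and no symbol is drawn where both groups were at 3 counts or fewer. NKX2-2 lies below 0 at all 3 stages and OTX2 above 0 at all 3, with an open symbol for OTX2 in pre-ME +ActA.

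The step from cjiPSCs to pre-ME was compared within each medium and ActA condition. PAX3 rose in all 4 comparisons, GSX2 passed the test in the 2 comparisons with ActA, and SOX3 rose without ActA in both media. The counts of genes that passed the adjusted p were 5 in TESR +ActA (4 past both thresholds), 5 in TESR −ActA (3 past both), 2 in cjPSCM +ActA (2 past both) and 6 in cjPSCM −ActA (3 past both). Among all genes tested 34.5%, 36.6%, 17.7% and 38% passed the adjusted p and 6.96%, 7.86%, 3.06% and 5.27% both thresholds. The comparisons of a medium share the same cjiPSC libraries, so the difference between them is that of pre-ME +ActA over −ActA, tested below.

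PAX3 was at 8.93 normalised counts or below in all 4 cjiPSC libraries and at 67.3 or above in all 8 pre-ME libraries. In TESR pre-ME it stood at 77.4 and 98.3 normalised counts without ActA and at 67.3 and 71.7 with it, log2 fold changes over cjiPSCs of 4.10 (SE 0.53, adjusted p = 2.78e-05) and 3.76 (SE 0.54, adjusted p = 7.10e-05). In cjPSCM pre-ME it stood at 73.7 and 76.3 without ActA and at 81.8 and 89.9 with it, which was 32.4-fold (12.5 to 120) and 36.8-fold (14.1 to 137) above the 3 counts and 1 count of the cjiPSCs (adjusted p = 3.47e-05 and 5.45e-05). No comparison between the pre-ME conditions passed the test for PAX3.

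GSX2 had no count in the 4 cjiPSC libraries. In pre-ME +ActA it had 56 and 97 counts from TESR and 56 and 24 from cjPSCM, at least 13.4-fold (adjusted p = 0.000189) and at least 11.1-fold higher (adjusted p = 0.000793, but 0.0524 with the libraries of the comparison alone). NKX2-2 took the opposite course in TESR, from 272 and 326 normalised counts in cjiPSCs to 62.4 and 43.0 in pre-ME +ActA and 41.7 and 33.7 in pre-ME −ActA. Its log2 fold changes were -2.49 (SE 0.30, adjusted p = 2.93e-05) and -2.97 (SE 0.31, adjusted p = 6.71e-06). PAX6 passed the test only in cjPSCM −ActA, where 14.7 and 10.9 normalised counts were 5.78-fold above cjiPSCs (interval 2.07 to 22.3, adjusted p = 0.0225).

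SOX3 went from 200.5 and 261 normalised counts in TESR cjiPSCs to 432 and 536 in pre-ME −ActA but to 73.3 and 123 in pre-ME +ActA. It rose by 1.09 on the log2 scale without ActA (SE 0.36, adjusted p = 0.0263) and fell by 1.21 with it (SE 0.38, adjusted p = 0.0202). In cjPSCM, SOX3 was at 199.8 and 158 in pre-ME −ActA against 10.4 and 57.8 in cjiPSCs, a rise by 2.56 (SE 0.45, adjusted p = 0.000404), and at 70.9 and 57.6 in pre-ME +ActA, where the log2 fold change of 1.08 (SE 0.48) did not pass (adjusted p = 0.131). OTX2 rose in TESR pre-ME +ActA by 4.00 (SE 0.71, adjusted p = 0.000426), or by 2.81 without pre-ME replicate 1, in TESR pre-ME −ActA by 2.14 (SE 0.80, adjusted p = 0.0464) and in cjPSCM pre-ME −ActA by 1.89 (SE 0.46, adjusted p = 0.00452). With the replicate number as a block, the OTX2 value in TESR pre-ME −ActA did not pass (adjusted p = 0.0551).

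ZIC5 rose without ActA by 1.18 in TESR (SE 0.43, adjusted p = 0.0386) and by 1.18 in cjPSCM (SE 0.43, adjusted p = 0.0378), and SOX11 by 0.61 in cjPSCM (SE 0.22, adjusted p = 0.0403). With DESeq2 neither ZIC5 value passed (adjusted p = 0.0742 and 0.0953). ZIC2 passed in none of the 4 comparisons. In TESR it went from 1189 and 1438 to 2272 and 2928 normalised counts without ActA, with no overlap, and its log2 fold change of 1.00 had an adjusted p of 0.168 over 20 libraries and of 0.000276 in a fit of 18 libraries without the cjPSCM cjiPSC pair. SOX11 in TESR −ActA had a log2 fold change of 0.54 (SE 0.22), with an adjusted p of 0.0677 over 20 libraries and 0.00712 over those 18. Against cjPSCM cjiPSCs the values of SOX3, SOX11, ZIC2 and ZIC5 turn on 1 library, as without cjPSCM cjiPSC replicate 2 the change of ZIC2 went from -0.31 to 2.12 with ActA and from 1.18 to 3.61 without. In TESR −ActA, the calls of SOX3 and ZIC5 were lost in all 4 fits that left out a library (adjusted p 0.0517 to 0.193), and that of OTX2 without either TESR cjiPSC replicate (0.303 and 0.100) or pre-ME replicate 1 (0.226). With ActA, that of SOX3 was lost without TESR cjiPSC replicate 2 (adjusted p = 0.0911) or pre-ME replicate 1 (0.190). With the libraries of the comparison alone, the calls of SOX3, PAX6, SOX11 and ZIC5 in cjPSCM −ActA were lost (adjusted p = 0.0914, 0.0970, 0.287 and 0.247), and without cjiPSC replicate 1 or 2 the rise of SOX3 was 1.69 or 4.12. In cjPSCM −ActA, leaving out cjiPSC replicate 1 ended the calls of OTX2, PAX6, SOX11 and ZIC5 (adjusted p = 0.0512, 0.0797, 0.425 and 0.281). There, leaving out pre-ME replicate 1 ended those of PAX6, SOX11 and ZIC5 (0.112, 0.219 and 0.0902), cjiPSC replicate 2 that of PAX6 (0.0604) and pre-ME replicate 2 that of ZIC5 (0.115).

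**Figure D3:**
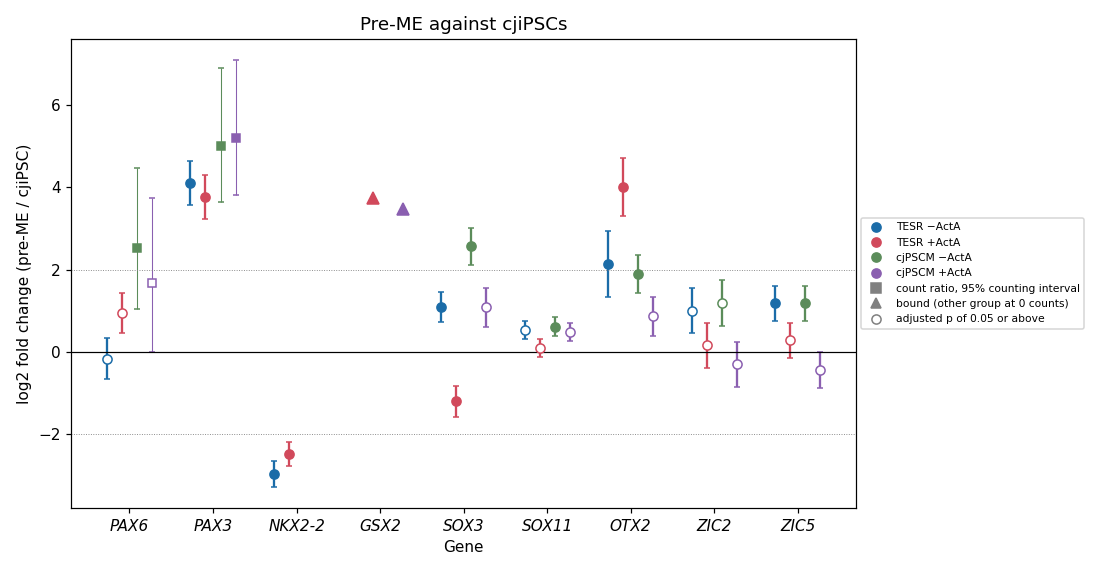
Change from cjiPSCs to pre-ME for each gene, as log2 fold change of pre-ME over the cjiPSCs of the same medium, for both media with and without ActA. Circles are edgeR estimates with 1 SE, squares count ratios with a 95% counting interval, triangles bounds, and open symbols an adjusted p of 0.05 or above. PAX3 is raised in all 4 comparisons, GSX2 in those with ActA, and SOX3 lies above 0 in TESR −ActA and below 0 in TESR +ActA.

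ActA was compared directly between the pre-ME made with and without it. In both media GSX2 was higher and SOX3 lower with ActA. In each medium 3 of the 9 genes passed the adjusted p. Both thresholds were passed by 2 genes in TESR, where 2% of all genes passed both and 8.84% the adjusted p, and by 1 gene in cjPSCM, where 2.11% passed both and 20.9% the adjusted p.

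GSX2 had 56 and 97 counts in TESR pre-ME +ActA against 0 and 1 in pre-ME −ActA, a ratio of 163-fold with a wide counting interval of 28.9 to 6489.8 (adjusted p = 0.000322). In cjPSCM it had 56 and 24 counts with ActA and none without, at least 17.0-fold higher (adjusted p = 0.000519). After normalisation the +ActA libraries stood at 30.6 and 51.5 in TESR and at 46.7 and 33.7 in cjPSCM, overlapping between media, and the log2 difference between media was -0.03 (SE 0.42). SOX3 fell with ActA from 432 and 536 to 73.3 and 123 normalised counts in TESR, a log2 fold change of -2.30 (SE 0.38, adjusted p = 0.000678). In cjPSCM it fell from 199.8 and 158 to 70.9 and 57.6, a change of -1.48 (SE 0.40, adjusted p = 0.0170).

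ZIC5 was at 808 and 866 normalised counts in cjPSCM pre-ME −ActA and at 267 and 282 with ActA, a log2 fold change of -1.63 (SE 0.43, adjusted p = 0.0155). ZIC2 was at 2678 and 2756 without and at 1016 and 942 with ActA, with no overlap. Its log2 fold change of -1.49 (SE 0.56) had an adjusted p of 0.0673 in the fit of 20 libraries and of 2.33e-05 in the fit of 18 libraries without the cjPSCM cjiPSC pair. In TESR, ZIC2 was at 2272 and 2928 without and 1581 and 1326 with ActA and ZIC5 at 510 and 680 without and 264 and 369 with it, and their adjusted p of 0.461 and 0.233 became 0.00303 and 0.0185 in the 18 libraries. PAX6 in TESR was at 17.0 and 18.7 without and 41.0 and 36.6 with ActA. Its log2 fold change of 1.11 (SE 0.46) had an adjusted p of 0.168, 0.0843 over 18 libraries and 0.00973 with the libraries of the comparison alone. The SOX11 change there of -0.44 (SE 0.22) had an adjusted p of 0.297, 0.0474 over 18 libraries and 0.0296 with those of the comparison alone.

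Which medium held a passing effect of ActA on OTX2 depended on the libraries fitted. It was at 115 and 31.8 normalised counts with ActA and 26.9 and 13.6 without in TESR, a rise by 1.87 on the log2 scale (SE 0.50, adjusted p = 0.0260), and at 119 and 198 with ActA against 259 and 372 without in cjPSCM, a log2 fold change of -1.03 (SE 0.44, adjusted p = 0.101). The difference between these effects was -2.90 on the log2 scale (SE 0.67) with an adjusted p of 0.0664, and its adjusted p was 0.00468 with DESeq2, 0.0268 with edgeR on the libraries of the comparison and 0.0248 on the 18 libraries. The TESR replicates with ActA decide the OTX2 values, since without replicate 1 the rise in TESR was 0.67 (adjusted p = 0.696) and the difference between media -1.70 (adjusted p = 0.407), and without replicate 2 the difference was -3.55 (adjusted p = 0.00953). In the fit of 20 libraries 0 of the 9 genes passed this interaction, which 0.399% of all genes did, and OTX2 and PAX6 had an unadjusted p under 0.05. With the libraries of the comparison alone PAX6 and ZIC2 also passed (adjusted p = 0.0201 and 0.0383). The SOX3 call in cjPSCM was lost in all 4 fits that left out a library (adjusted p 0.0519 to 0.105) and the ZIC5 call without either +ActA replicate (0.133 and 0.0706) or −ActA replicate 2 (0.0808). In TESR, the OTX2 call was also lost without −ActA replicate 2 (adjusted p = 0.307) and with the libraries of the comparison alone (0.0728), a setting in which the fall of OTX2 in cjPSCM by 1.03 passed (0.0111).

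At day 4 no trace of the ActA given to the pre-ME was detected in these genes. In soma and in cjPGCLCs 0 of the 9 passed the test between the ActA series, none had an unadjusted p under 0.05, and DESeq2 called none. Of all genes tested, 0.0253% passed the adjusted p in soma and 2.53% in cjPGCLCs, and 0.00633% and 0.38% passed both thresholds. The 0 of 9 is thus near the share of all genes. GSX2, which was higher with ActA in pre-ME, had no count in any of the 8 sorted libraries. With 2 replicates the SEs of these log2 differences, GSX2 aside, ran from 0.22 for SOX11 to 1.42 for PAX6, both in soma. For the genes with wide SEs only large differences were detectable. Whether the fractions differed more in 1 ActA series than in the other was tested as an interaction, which 0.0633% of all genes and 0 of the 9 passed, with none at an unadjusted p under 0.05.

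**Figure D4:**
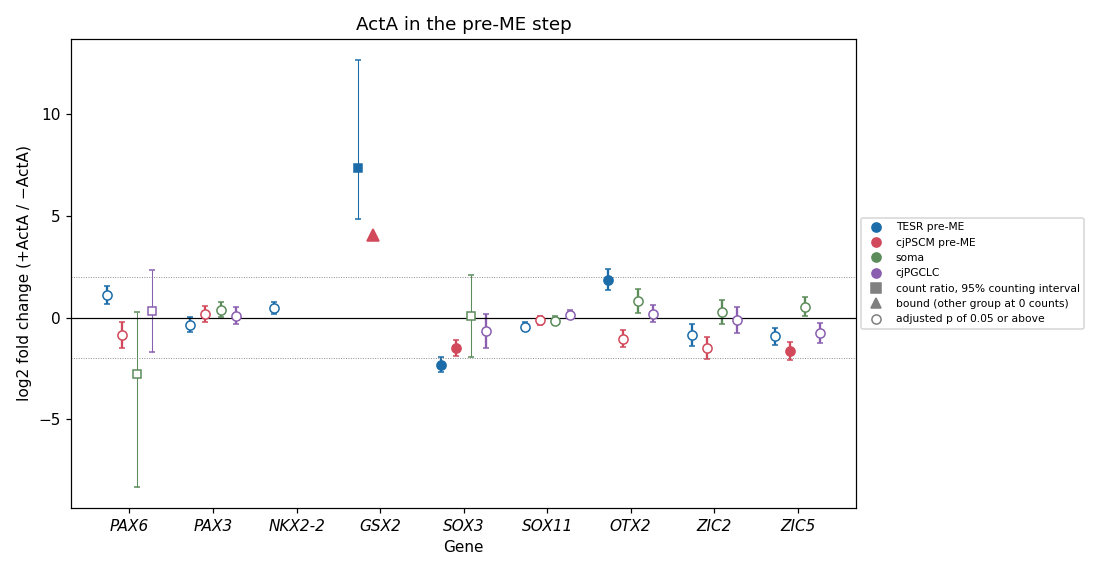
Effect of ActA given during the pre-ME step, as log2 fold change of +ActA over −ActA, in pre-ME of both media and in the soma and cjPGCLCs sorted at day 4. Symbols are as in the plot of pre-ME against cjiPSCs. GSX2 stands far above 0 and SOX3 below 0 in both pre-ME, OTX2 lies on opposite sides of 0 in them, and all day 4 symbols are open.

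The sort asked which of these factors separate cjPGCLCs from the somatic cells of the same ActA series. The main fit did not pair the fractions. OTX2 was higher and PAX3 lower in cjPGCLCs than in soma in both ActA series. In the +ActA series 2 genes passed the adjusted p and 1 both thresholds, where 4.84% and 1.58% of all genes did, and in the −ActA series 3 and 1, where 9.64% and 2.84% did. Genes that encode sort markers and germ cell markers differed between the fractions as given above, and the part of fraction purity in the values below was not tested.

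OTX2 was at 430.2 and 407 normalised counts in cjPGCLCs +ActA against 65.5 and 85.0 in soma, and at 374 and 359 in cjPGCLCs −ActA against 23.1 and 57.2. All 4 cjPGCLC libraries were above all 4 soma libraries, and the log2 differences were 2.48 (SE 0.48, adjusted p = 0.00541) and 3.13 (SE 0.53, adjusted p = 0.000896). PAX3 was at 31.3 and 95.3 against 156 and 227 in the +ActA series and at 43.3 and 74.1 against 127 and 164 in the −ActA series. The fractions did not overlap, and PAX3 was lower in cjPGCLCs, with log2 differences of -1.65 (SE 0.40, adjusted p = 0.0212) and -1.35 (SE 0.41, adjusted p = 0.0449).

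SOX11 was at 4031 and 3775 normalised counts in cjPGCLCs +ActA against 6045 and 5909 in soma, and at 3532 and 3503 against 6621 and 6601 in the −ActA series. The latter difference of -0.89 on the log2 scale passed (SE 0.22, adjusted p = 0.0159) and the former of -0.60 did not (SE 0.22, adjusted p = 0.155), though it did in the comparison alone (adjusted p = 0.00261) and over 18 libraries (0.0115). ZIC2 was at 132 and 176 against 391 and 604 with ActA and at 166 and 161 against 341 and 473 without, with no overlap in either series. Its log2 differences of -1.70 and -1.31 had adjusted p of 0.159 and 0.250 over 20 libraries and of 7.12e-05 and 0.000421 over the 18 without the cjPSCM cjiPSC pair. ZIC5 differed by -1.71 in the +ActA series (SE 0.49, adjusted p = 0.0534) and by -0.42 in the −ActA series (SE 0.48, adjusted p = 0.713). The +ActA value passed with DESeq2 (adjusted p = 0.0483), in the comparison alone (0.0141) and over 18 libraries (0.00150).

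PAX6, NKX2-2 and SOX3 were low at day 4, and no fold between the fractions is given for them. PAX6 had at most 6 counts, NKX2-2 at most 3 and SOX3 at most 12 in a sorted library, and none of them passed the test. In the +ActA series, the OTX2 call was lost without soma replicate 1 (adjusted p = 0.0814) or replicate 2 (0.0634), and the PAX3 difference was -1.35 without soma replicate 2 (adjusted p = 0.256), -0.998 without cjPGCLC replicate 1 (adjusted p = 0.329) and -2.61 without cjPGCLC replicate 2 (adjusted p = 0.00139). In the −ActA series, the calls of PAX3 and SOX11 were lost in all 4 fits that left out a library, with adjusted p up to 0.388 and 0.106.

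The last comparison set each sorted fraction against the cjPSCM pre-ME it came from. SOX3 fell in both fractions of both series, ZIC2 and ZIC5 each fell in 3 of the 4 comparisons, SOX11 rose in soma, and OTX2 fell in soma −ActA and rose in cjPGCLCs +ActA. The adjusted p was passed by 4 genes in soma +ActA, 5 in soma −ActA, 6 in cjPGCLCs +ActA and 5 in cjPGCLCs −ActA, against 48%, 42.2%, 48.4% and 40% of all genes. Both thresholds were passed by 2, 4, 3 and 5 genes, against 8.3%, 7.95%, 8.36% and 7.88%. Among the 5 in cjPGCLCs −ActA was NKX2-2, with 3 counts in each cjPGCLC −ActA library and none in pre-ME −ActA (adjusted p = 0.0103), for which no fold is given since both groups are at the floor.

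SOX3 was at 1.77 and 7.45 normalised counts in soma +ActA, 5.07 and 7.11 in cjPGCLCs +ActA, 4.61 and 4.64 in soma −ActA and 9.11 and 9.46 in cjPGCLCs −ActA. All 8 values lay under the lowest pre-ME value of 57.6. Against the pre-ME of their series, SOX3 fell, with log2 fold changes of -3.72 (SE 0.71, adjusted p = 0.000413), -3.44 (SE 0.62, adjusted p = 0.000254) and -4.27 (SE 0.53, adjusted p = 9.99e-06) in soma +ActA, cjPGCLCs +ActA and cjPGCLCs −ActA. In soma −ActA the count ratio was 39.8-fold lower, with an interval of 16.9 to 123 (adjusted p = 1.08e-05).

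ZIC2 fell, with log2 fold changes of -2.68 in cjPGCLCs +ActA (SE 0.62, adjusted p = 0.00212), -4.07 in cjPGCLCs −ActA (SE 0.64, adjusted p = 0.000109) and -2.76 in soma −ActA (SE 0.60, adjusted p = 0.00158). In soma +ActA its change of -0.98 had an adjusted p of 0.173 over 20 libraries and of 0.000373 over 18. ZIC5 fell, with changes of -1.55 in cjPGCLCs +ActA (SE 0.48, adjusted p = 0.0140), -2.43 in cjPGCLCs −ActA (SE 0.45, adjusted p = 0.000476) and -2.02 in soma −ActA (SE 0.46, adjusted p = 0.00199), while in soma +ActA, at 237 and 377 normalised counts against 267 and 282, the groups overlapped. Its log2 fold change there was 0.16 (SE 0.45, adjusted p = 0.784).

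SOX11 rose in soma by 1.38 with ActA (SE 0.23, adjusted p = 0.000110) and by 1.39 without (SE 0.22, adjusted p = 0.000118), and in cjPGCLCs +ActA by 0.77 (SE 0.22, adjusted p = 0.00892). In cjPGCLCs −ActA its log2 fold change of 0.50 had an adjusted p of 0.0826 over 20 libraries, 0.0116 over 18 and 0.0139 in the comparison alone. OTX2 rose in cjPGCLCs +ActA by 1.42 (SE 0.44, adjusted p = 0.0132), from 119 and 198 to 430.2 and 407 normalised counts. In soma −ActA it fell by 2.92 (SE 0.53, adjusted p = 0.000322), from 259 and 372 to 23.1 and 57.2. In soma +ActA it was at 65.5 and 85.0, below both pre-ME replicates, and the log2 fold change of -1.05 had an adjusted p of 0.0878 over 20 libraries and 0.00117 in the comparison alone. In cjPGCLCs −ActA, at 374 and 359, it overlapped its pre-ME. PAX3 rose in soma +ActA by 1.16 (SE 0.38, adjusted p = 0.0195) and reached 0.94 in soma −ActA (SE 0.39, adjusted p = 0.0609). The latter passed in the comparison alone (adjusted p = 0.00443), over 18 libraries (0.0400) and with the replicate number as a block (0.0324).

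GSX2 had no count in either fraction and was at least 8.22-fold lower in soma +ActA (adjusted p = 0.000352) and at least 11.8-fold lower in cjPGCLCs +ActA (adjusted p = 0.000165) than in pre-ME +ActA. PAX6 was 5.19-fold lower in cjPGCLCs −ActA (interval 2.03 to 17.0, adjusted p = 0.0266). In soma +ActA, with 1 count and none, its count ratio was 9.05-fold lower (1.38 to 383), with an adjusted p of 0.0566 over 20 libraries and 0.0498 over 18. In soma +ActA, the PAX3 call was lost without either pre-ME replicate (adjusted p = 0.111 and 0.0678) or soma replicate 2 (0.178). In cjPGCLCs +ActA, leaving out cjPGCLC replicate 1 ended the calls of OTX2, SOX11 and ZIC5 (adjusted p = 0.0578, 0.0534 and 0.171), pre-ME replicate 1 that of OTX2 (0.143) and pre-ME replicate 2 that of SOX11 (0.114). In cjPGCLCs −ActA, leaving out pre-ME replicate 1 ended the calls of PAX6 and NKX2-2 (adjusted p = 0.123 and 0.0724) and cjPGCLC replicate 1 that of PAX6 (0.291).

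**Figure D5:**
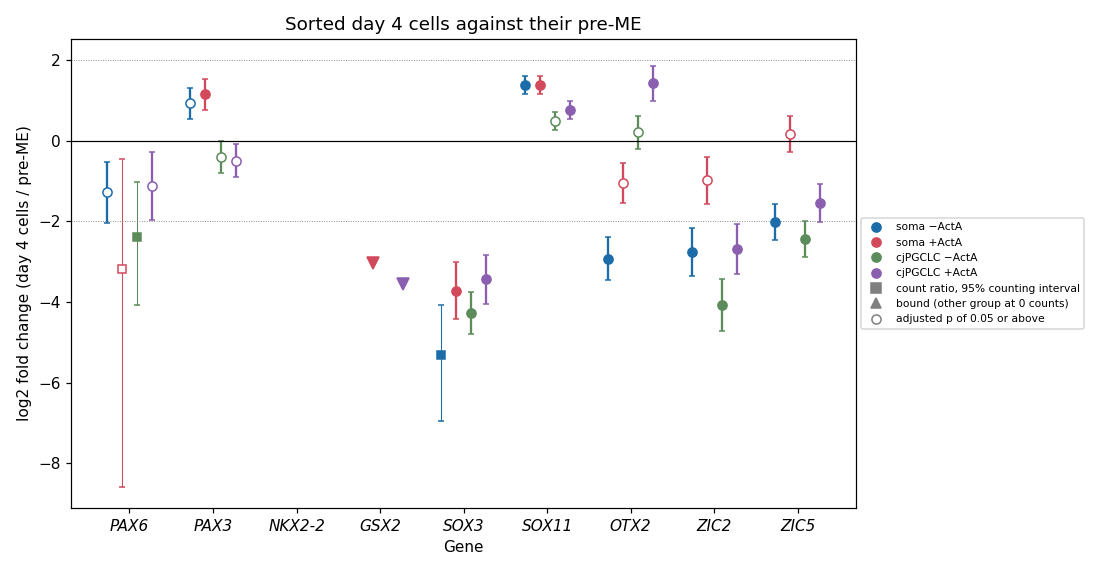
Change from cjPSCM pre-ME to the cells sorted at day 4, as log2 fold change of soma or cjPGCLCs over the pre-ME of the same ActA series. Symbols are as in the plot of pre-ME against cjiPSCs, with downward triangles for genes without a count at day 4. SOX3 is the gene below -2 in all 4 comparisons, SOX11 lies above 0 in all 4, and OTX2 is split between fractions.

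Over the 10 conditions the mean levels gave each gene its own order, on the normalised count scale. The highest mean was found in TESR cjiPSCs for NKX2-2 (299), in TESR pre-ME +ActA for PAX6 (38.8) and GSX2 (41.1), and in TESR pre-ME −ActA for SOX3 (484). It was found in cjPSCM pre-ME −ActA for ZIC2 (2717) and ZIC5 (837), in soma for PAX3 (191, +ActA) and SOX11 (6611, −ActA), and in cjPGCLCs +ActA for OTX2 (418). For PAX3, GSX2 and ZIC2 the replicates of the highest condition overlapped those of the next, soma −ActA, cjPSCM pre-ME +ActA and TESR pre-ME −ActA, so that these pairs do not differ beyond their spread. The other 6 genes had a highest condition whose replicates both lay above the next, which with 2 replicates each is not a test. The share of all genes with such a gap was not counted. Between these highest and next conditions NKX2-2 and SOX3 passed the adjusted p. PAX6 (adjusted p = 0.142), ZIC5 (0.492), OTX2 (0.959) and SOX11 did not.

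As a description over the 10 condition means of log2(normalised count + 1), the pair most alike among the 9 genes was ZIC2 and ZIC5 with a Pearson correlation of 0.905. SOX3 and ZIC2 followed with 0.876 and PAX6 and SOX3 with 0.871, and NKX2-2 and OTX2 were the most opposed with -0.754. Conditions share cultures and media, and with 10 points such values rest on a few conditions. Among 12498 other genes with a symbol and a mean of at least 10 normalised counts, the one most like GSX2 was NODAL (0.979), which encodes a TGFβ family ligand of the same receptors as Activin, followed by BOK (0.939) and MATN3 (0.932). PAX3 was most like MKS1 (0.972) and CDX4 (0.968), a caudal homeobox factor of the posterior embryo. OTX2 was most like KLF4 (0.944), a pluripotency factor. For NKX2-2 the gene was EDN3 (0.975), for SOX3 SLC2A4 (0.988), for PAX6 LSM12 (0.976), for SOX11 VEZF1 (0.973), for ZIC2 TMEM39B (0.978) and for ZIC5 FAM118B (0.915). With Spearman's correlation none of the 3 nearest genes of PAX6, NKX2-2, GSX2, SOX11 and ZIC2 was kept among the nearest 3, and 1 was kept for PAX3, SOX3 and OTX2 and 2 for ZIC5. The genes kept were SECISBP2 for PAX3 and NUDT13 for OTX2, so MKS1, CDX4 and KLF4 were lost. With a pseudocount of 10 CDX4 was lost too, and the gene most like NKX2-2 was EBF2 (0.990).

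Of 22 relatives of the 9 genes, other PAX, NKX2, GSX, SOX, OTX and ZIC genes, 21 were in the table and 11 passed the filter. From cjiPSCs to pre-ME 3 of the 11 rose and 2 fell in TESR +ActA, 4 and 4 in TESR −ActA, 2 and 0 in cjPSCM +ActA and 3 and 4 in cjPSCM −ActA, where 34.5%, 36.6%, 17.7% and 38% of all genes passed. ZIC1, another dorsal neural factor of the ZIC family, was past both thresholds in all 4 comparisons of pre-ME with cjiPSCs, with ratios from 58.5-fold to 111-fold. OTX1 had a count ratio of 9.04-fold (3.69 to 28.7) in the +ActA and 5.87-fold (2.36 to 18.8) in the −ActA series in favour of cjPGCLCs over soma. NKX2-3 was higher with ActA, by 2.42 in TESR (SE 0.34, adjusted p = 0.000170) and by 5.31 in cjPSCM (SE 0.36, adjusted p = 1.72e-07). PAX8 differed by -5.52 on the log2 scale in cjPSCM against TESR cjiPSCs (SE 0.75, adjusted p = 3.58e-05).

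Of 9 neural plate and forebrain factors tested, 2 rose and 0 fell with ActA in TESR pre-ME and 2 rose and 1 fell in cjPSCM pre-ME, where 8.84% and 20.9% of all genes passed. Among them was POU3F3, a POU domain factor of cortical progenitors, which rose by 2.53 in TESR (SE 0.50, adjusted p = 0.00355) and 2.16 in cjPSCM (SE 0.49, adjusted p = 0.00658). Of 9 neural tube factors, 1 rose and 1 fell with ActA in TESR pre-ME and 2 rose and 0 fell in cjPSCM pre-ME. NKX6-2 was higher past both thresholds in both media, and NKX6-1 was lower past both in TESR. In soma +ActA against pre-ME, 1 of the 9 rose and 4 fell, with DBX1 and GBX2 lower past both thresholds, where 48% of all genes passed. In soma −ActA 2 rose and 3 fell, in cjPGCLCs +ActA 4 and 4, and in cjPGCLCs −ActA 3 and 3. Of all genes, 42.2%, 48.4% and 40% passed in these comparisons. The 1 that rose in soma +ActA was EN1, a midbrain and hindbrain factor, 301-fold above pre-ME (interval 102 to 1464). Between the fractions 1 of the 9 was higher in cjPGCLCs (FOXA2) and 1 lower (EN1) in each series, both past both thresholds, and 4.84% of all genes passed the adjusted p with ActA and 9.64% without. FOXA2, a factor of the floor plate and of endoderm, was at 192 and 83.9 normalised counts in cjPGCLCs +ActA and none in soma +ActA, at least 28.2-fold higher. Of 8 proneural and neuronal genes, 2 rose and 2 fell in soma +ActA and 2 rose and 3 fell in cjPGCLCs +ActA against pre-ME, with DCX, a neuronal microtubule protein, higher and INSM1 lower past both thresholds in both. These shares are near the 48% and 48.4% of all genes that passed there. In the −ActA series 2 rose and 2 fell in soma and 1 rose and 3 fell in cjPGCLCs. Of all genes 42.2% and 40% passed there, near these shares. INSM1 and MAP2 were lower past both thresholds in both fractions, ELAVL3 in cjPGCLCs, and DCX was past both in neither.

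Neural crest and plate border factors are the list nearest to PAX3 in function. Of 14 listed 12 were tested, and 8 rose in soma +ActA, 8 in soma −ActA, 9 in cjPGCLCs +ActA and 10 in cjPGCLCs −ActA against pre-ME, and 0, 1, 0 and 1 fell. Of all genes 48%, 42.2%, 48.4% and 40% passed in either direction. FOXD3, a factor that specifies neural crest, had no count in soma of either series or in cjPGCLCs −ActA and 1 count in cjPGCLCs +ActA, and held at most 3 counts in a library of cjPSCM pre-ME. The list's median log2 fold change was 2.21, 2.20, 2.83 and 2.85, against 0.01, 0.00, 0.04 and 0.01 over all genes tested. SNAI2 rose from 83.4 and 87.1 normalised counts in cjPSCM pre-ME +ActA to 1861 and 2062 in soma +ActA, by 4.52 on the log2 scale (SE 0.21, adjusted p = 2.21e-10). TWIST1 rose by 5.27 (SE 0.32, adjusted p = 4.49e-09) in soma +ActA and by 4.98 (SE 0.31, adjusted p = 7.56e-09) in cjPGCLCs +ActA. These genes are also active in mesoderm and amnion, and of 5 amnion and surface ectoderm markers (TFAP2A, which is on both lists, GATA3, KRT8, KRT18 and ISL1) the summed normalised counts were 8465 to 11893 in the sorted libraries and 1463 to 2248 in cjPSCM pre-ME. Of 6 mesendoderm and mesoderm markers, HAND1 was the 1 that rose in soma +ActA and in cjPGCLCs +ActA, from 16.7 and 18.3 normalised counts in pre-ME to 3934 and 3497 and to 2135 and 2858, while 3 fell in each. In the −ActA series HAND1 was also the 1 that rose in each fraction, while 1 fell in soma and 0 in cjPGCLCs. HAND1 was named after its values were seen. The part of such cells in the values of PAX3 and SOX11 was not tested.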

How the data were processed

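Poly(A) RNA was sequenced from 20 libraries of the marmoset line DPZ_cjiPSC2 in 10 conditions with 2 replicates each, which the labels call biological. The authors aligned reads with STAR 2.7.0a to calJac4 and counted them per gene with HTSeq 0.11 after FastQC 0.11.8. They deposited raw counts and values divided by DESeq2 size factors, a signal on the scale of counts that is called normalised count here. The strand setting and annotation release were not given in the sources used here. Between 10.6% and 23.2% of a library's counts fell on no feature, 0.268% to 0.35% were ambiguous, and 4 rows that name no gene were left out of totals and tests (at most 0.00295% of the counts for an unnamed row).

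Raw counts of the 15795 genes that passed filterByExpr were fitted with edgeR 4.0.16 (TMM, quasi-likelihood F-test, R 4.3.3), with 1 coefficient per condition over 20 libraries. Comparisons were contrasts of that fit, p-values were adjusted by Benjamini-Hochberg over all genes tested in each, and the study's thresholds were used (log2 fold change beyond 2 with adjusted p below 0.05). "Rose" and "fell" mean that the adjusted p passed. SE is the log2 fold change over the square root of its F. Where the low group had no count, a fold is a bound against 3 counts per library, and with 1 to 3 counts it is a count ratio with a 95% Clopper-Pearson interval, which covers counting error only. The fit was tested on simulated counts. Alternatives were DESeq2 1.42.0, no filter, the libraries of a comparison alone, a replicate block and leaving out each library, and, added after seeing the data, a crossed block and a fit of 18 libraries without the cjPSCM cjiPSC pair, whose replicates lay far apart.

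The 9 genes and all lists were chosen with earlier results of these data known. All 9 were tested in every comparison, but values that did not pass are not all printed. From a list at most the 4 genes of largest log2 fold change among those past both thresholds were taken, not all of which are printed. For likeness, the 3 genes of highest Pearson correlation were taken. No sequence is shown, since no genome of the build was used here, and RefSeq's order of genes (calJac240_pri) served only to name neighbours.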

Additional observations from a re-analysis of the deposited data

How the results depend on the processing

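Values of genes at or near the floor of 3 counts, given with no fitted fold change, are left out of the next counts. So are the interactions of all genes but OTX2, none of which passed over 20 libraries. Among these, PAX6 and ZIC2 gained a call for ActA and medium with the libraries of the comparison alone. Of 562 other values of single genes refitted with all libraries, 506 kept their direction and their side of the adjusted p threshold, 9 lost the call, 45 gained one and 2 reversed, both for the medium difference of GSX2 with ActA (0.019 under the replicate block, 0.0014 with the libraries of the comparison alone). With 1 library left out, 359 of 448 kept both, 56 lost the call, 12 gained one and 21 reversed, where the remaining replicate of a condition was assumed to vary like the others. In the 18 libraries without the cjPSCM cjiPSC pair, 16 of 95 such values gained a call and none of the 95 was lost or reversed. The cause was not tested.

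Counts of genes past both thresholds moved by over 1.5 times as follows. With the libraries of the comparison alone, the count was 1 in place of 2 for cjPSCM pre-ME +ActA against cjiPSCs and 1 in place of 3 for −ActA. Interactions are counted here on the adjusted p alone, and in that setting the one of ActA and medium was passed by 3 in place of 0. Smaller moves were 3 in place of 4 for soma −ActA against pre-ME, there and with DESeq2, 4 in place of 5 for cjPGCLCs −ActA, and 3 in place of 2 for soma +ActA without the filter and in the 18 libraries. The interaction of ActA and medium was passed by 1 gene without the filter, with DESeq2 and in the 18 libraries, and the interaction of sort and ActA by 1 without the filter. With a library left out, the counts ran from 2 to 4 and from 1 to 5 for cjPSCM pre-ME +ActA and −ActA against cjiPSCs, from 1 to 3 for ActA in TESR pre-ME, from 1 to 3 between media in pre-ME +ActA, from 0 to 3 between the fractions +ActA, from 3 to 5 for cjPGCLCs −ActA against pre-ME and from 0 to 1 for the interaction of ActA and medium.

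Pairwise log2 fold changes of genes above the floor of 3 counts that changed sign with a library left out ran over these ranges. For ZIC2 they were -2.54 to 0.76 between media in cjiPSCs, -1.19 to 2.12 from cjiPSCs to cjPSCM pre-ME +ActA, -0.10 to 0.26 between media in pre-ME −ActA, -0.067 to 0.57 for ActA in soma and -0.31 to 0.11 for ActA in cjPGCLCs. For ZIC5 they were -0.79 to 1.19 between media in cjiPSCs, -1.15 to 0.84 from cjiPSCs to cjPSCM pre-ME +ActA, -0.45 to 0.035 between media in pre-ME +ActA and -0.22 to 0.44 from pre-ME to soma +ActA. For SOX11 they were -0.36 to 0.072 for ActA in cjPSCM pre-ME and -0.051 to 0.24 from cjiPSCs to TESR pre-ME +ActA. For PAX3 they were -1.45 to 0.15 from pre-ME to cjPGCLCs +ActA and -0.86 to 0.74 for ActA in cjPGCLCs. The others were PAX6 from cjiPSCs to TESR pre-ME −ActA (-0.47 to 0.055), GSX2 between media in pre-ME +ActA (-0.36 to 0.39), SOX3 between the fractions +ActA (-0.33 to 1.68) and OTX2 from pre-ME to cjPGCLCs −ActA (-0.047 to 0.46). At the floor, fitted values of PAX6 at day 4 (between the fractions −ActA and with ActA in each fraction), of SOX3 (with ActA in soma) and of NKX2-2 (from pre-ME to cjPGCLCs +ActA, -3.39 to 0.63, and 0.0023 with all libraries against -0.0056 with DESeq2 and -0.0088 in the 18) also changed sign, in comparisons where no fit passed the adjusted p. So did the interactions of sort and ActA for PAX3, PAX6 and SOX3 and of ActA and medium for GSX2.

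Replicate numbers are not stated to mark a shared culture, and same-numbered libraries had deviations that correlated from -0.204 to 0.257. With the replicate number as a block, 2 in place of 3 genes passed both thresholds from cjiPSCs to TESR pre-ME −ActA, and the counts of the other comparisons were the same. In single genes the block ended the call of OTX2 in that comparison (adjusted p = 0.0551) and made one for PAX3 from pre-ME to soma −ActA (0.0324) and for ZIC5 between the fractions +ActA (0.0190). With the numbers crossed, a pairing chosen after seeing the data, the counts stayed at 2, 3 and 4 for cjPSCM pre-ME +ActA and −ActA against cjiPSCs and soma −ActA against pre-ME. DESeq2 gave no adjusted p for GSX2 with ActA in cjPSCM pre-ME. Depth limits PAX6, NKX2-2 and SOX3 at day 4, where a library held 12 counts at most.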
